A study of Homo sapiens with 8 samples.

Results

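The proteins of the ZBTB, ZSCAN and ZKSCAN genes bind DNA through zinc fingers and differ in the domain at the other end of the protein. The BTB domain of ZBTB proteins joins protein chains into dimers and recruits corepressors such as NCOR1 and HDAC complexes, and in other BTB proteins it serves as an adaptor to the ubiquitin ligase scaffold CUL3. The SCAN domain of ZSCAN proteins mediates pairing between SCAN proteins, and ZKSCAN proteins carry a KRAB domain besides. In many other zinc finger proteins the KRAB domain recruits the corepressor TRIM28. Members were taken by name, as all probes whose single gene symbol in the platform annotation begins with ZBTB, ZSCAN or ZKSCAN and a digit. The rule gave 81 probes of 59 genes, out of 31741 probes, of which 24658 had 1 symbol and covered 18282 symbols. ZBTB supplied 57 probes of 39 genes, ZSCAN 19 probes of 15 genes and ZKSCAN 5 probes of 5 genes. The name also took in ZBTB8OS, which encodes a subunit of the tRNA ligase complex and no zinc finger, and ZSCAN12P1, a pseudogene. Because the annotation used older names, 10 genes that now belong to the 3 families (18 probes, among them ZBTB18 under the name ZNF238) lay outside the rule.

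SH-SY5Y, an established human neuroblastoma cell line used as a neuronal model, was treated for 24 h with the dicarboxylic acid maleic acid at 10, 50 or 100 µM, and the control received none (0 µM). RNA of each of the 4 doses was labelled with Cy5 and hybridised to 2 Human Whole Genome OneArray slides, for 8 arrays in total, so that the pair of arrays at a dose repeats the measurement of 1 RNA sample. A p-value below therefore measures the spread between arrays, and says nothing of the spread between cultures, of which there was 1 per dose. In RNA from whole cultures, a change in RNA per cell and a change in the mix of cells cannot be told apart.

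The median deposited intensity of an array lay between 336 and 524. Neuroblastoma markers were bright, with a median of 15.86 log2 in the control over 10 probes of 8 genes, CHGA at 18.04 and DBH at 16.34 among them. Of these 10 probes, 1 was lower at 100 µM. Leukocyte markers had a median of 5.51 over 5 probes, with PTPRC, CD3E and LYZ between 4.74 and 5.61 and CD14 at 9.85, and 1 of the 5, CD14, was higher at 100 µM (0.63). Mesenchymal markers (8 probes) had a median of 6.48, with 2 higher and 2 lower at 100 µM, and epithelial markers (3 probes) one of 6.38 with 0 called. Of all probes, 8.94% were called higher and 10.4% lower at 100 µM, and the marker lists are too short to set against these shares. Whether the marker calls had a part in the members' results was not tested.

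Sequences upstream of 4 members whose probes moved are shown first, because 3 of them share a rare run of bases around the start of transcription. They are RefSeq windows of the build GRCh38.p14, 5′ to 3′, each from 250 bases before to 50 bases after the annotated start. ZSCAN23 lies at chr6:28443442-28443741 (minus strand), ZSCAN12 at chr6:28399698-28399997 (minus strand), ZKSCAN1 at chr7:100015346-100015645 (plus strand) and ZBTB33 at chrX:120250562-120250861 (plus strand). Capitals mark TTCCGGCCTTTGT in the first 3 windows and, in ZBTB33, the reverse complement of CCGGAAG, the core bound by ETS family factors.
ZSCAN23: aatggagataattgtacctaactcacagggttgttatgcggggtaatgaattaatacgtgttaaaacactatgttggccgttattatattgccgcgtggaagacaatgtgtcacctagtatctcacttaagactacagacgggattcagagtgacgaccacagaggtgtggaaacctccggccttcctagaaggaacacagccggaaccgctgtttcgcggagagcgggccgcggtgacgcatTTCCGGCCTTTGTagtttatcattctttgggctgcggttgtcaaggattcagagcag
ZSCAN12: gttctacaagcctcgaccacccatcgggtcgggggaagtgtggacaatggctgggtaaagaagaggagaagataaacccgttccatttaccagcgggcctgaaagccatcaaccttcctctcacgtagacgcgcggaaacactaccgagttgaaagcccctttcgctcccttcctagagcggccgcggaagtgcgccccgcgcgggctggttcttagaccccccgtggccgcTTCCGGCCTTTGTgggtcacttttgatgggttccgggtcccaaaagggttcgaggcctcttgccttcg
ZKSCAN1: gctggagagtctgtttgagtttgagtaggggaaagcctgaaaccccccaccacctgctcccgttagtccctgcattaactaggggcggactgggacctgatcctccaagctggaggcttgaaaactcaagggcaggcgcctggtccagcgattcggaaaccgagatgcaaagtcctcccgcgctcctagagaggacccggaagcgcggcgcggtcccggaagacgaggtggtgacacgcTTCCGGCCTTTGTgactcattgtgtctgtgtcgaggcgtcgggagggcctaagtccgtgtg
ZBTB33: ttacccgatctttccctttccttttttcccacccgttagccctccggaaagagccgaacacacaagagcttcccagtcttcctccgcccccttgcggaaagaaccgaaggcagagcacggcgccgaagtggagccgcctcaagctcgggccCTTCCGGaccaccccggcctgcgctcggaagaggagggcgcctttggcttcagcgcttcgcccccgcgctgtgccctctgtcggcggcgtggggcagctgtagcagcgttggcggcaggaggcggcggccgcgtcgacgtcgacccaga

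The run TTCCGGCCTTTGT began 7 bases before the start in ZSCAN23, 18 bases before it in ZSCAN12 and 11 bases before it in ZKSCAN1. Searched on both strands, it occurred in 4 of the 27305 genes with a window (0.0146%), the fourth being LOC105374998, whose window overlaps that of ZSCAN12 on the opposite strand. Its inner part, CCGGCCTTTG, occurred in 39 genes (0.143%) and in 4 of the 17 ZSCAN and ZKSCAN members with a window, ZSCAN22 being added, but in 0 of the 33 ZBTB members. The run was noticed on reading these windows, and it is the stretch that those of ZSCAN23, ZSCAN12 and ZKSCAN1 have in common. That these genes carry the run and its inner part was therefore fixed by the choice. Among members, ZSCAN22 alone was found beyond them. The shares, and the contrast with the ZBTB members, are a description with no test. ZSCAN23 and ZSCAN12, which are neighbours among protein-coding genes, carried the same run and moved in opposite directions, as given below.

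The ETS core CCGGAAG, searched on both strands, occurred in 19 of the 50 members with a window (38%), in 12.2% of all genes and in 40.2% of 508 genes named ZNF and a digit. It overlapped the 13-base run TTCCGGCCTTTGT in ZSCAN12 and ZKSCAN1. Of the 18 members with a probe lower at 100 µM, 13 had a window, and it occurred in 9 of these, against 10 of 37 among the other members with a window. Its share among all genes lower at 100 µM was not computed, and a link between the motif and the falls was not tested. TCCTGCNA, a motif bound by the ZBTB33 protein, was found in 4 of 50 members (ZBTB20, ZBTB38, ZBTB47 and ZBTB7C) and in 5.75% of all genes. TGACNNNGC, the core of the antioxidant response element, was found in 12 of 50 members (24%) and 16.1% of all genes. The richest window of a ZBTB gene held a median of 31 CpG dinucleotides, that of a ZSCAN gene 24 and that of a ZKSCAN gene 22, against 16 over all genes. The 50 members had 91 windows and the 27305 genes 35116, so members had more windows per gene. That raises both their richest window and their motif shares, and it was not corrected for.

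At 100 µM, 21 of the 81 member probes were lower than in the control beyond array noise and 3 were higher, while 57 did not pass (limma, adjusted p under 0.05 over all probes, two-sided). The share of lower members was 25.9%, where 10.4% of all probes were called lower, and the share of higher members was 3.70%, where 8.94% of all probes were called higher. The lower probes belonged to 18 genes and the higher probes to ZSCAN23, ZBTB16 and ZBTB47. Over all members the median log2 difference was −0.21, against −0.03 over all probes. Probes of the 492 genes named ZNF and a digit, the larger class of zinc finger genes, stood at a median of −0.29, with 22 of 635 higher and 193 lower (30.4%). The count of lower members rested on both control arrays, being 6 without the first and 2 without the second, where 1.97% and 2.09% of all probes were called lower. It was 13 without the first array at 100 µM, where 4.58% of all probes were called lower. The titles of the arrays at 100 µM carry a letter that those of the other doses lack. What it marks is not stated, and anything it marks cannot be told apart from the dose.

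**Figure D1:**
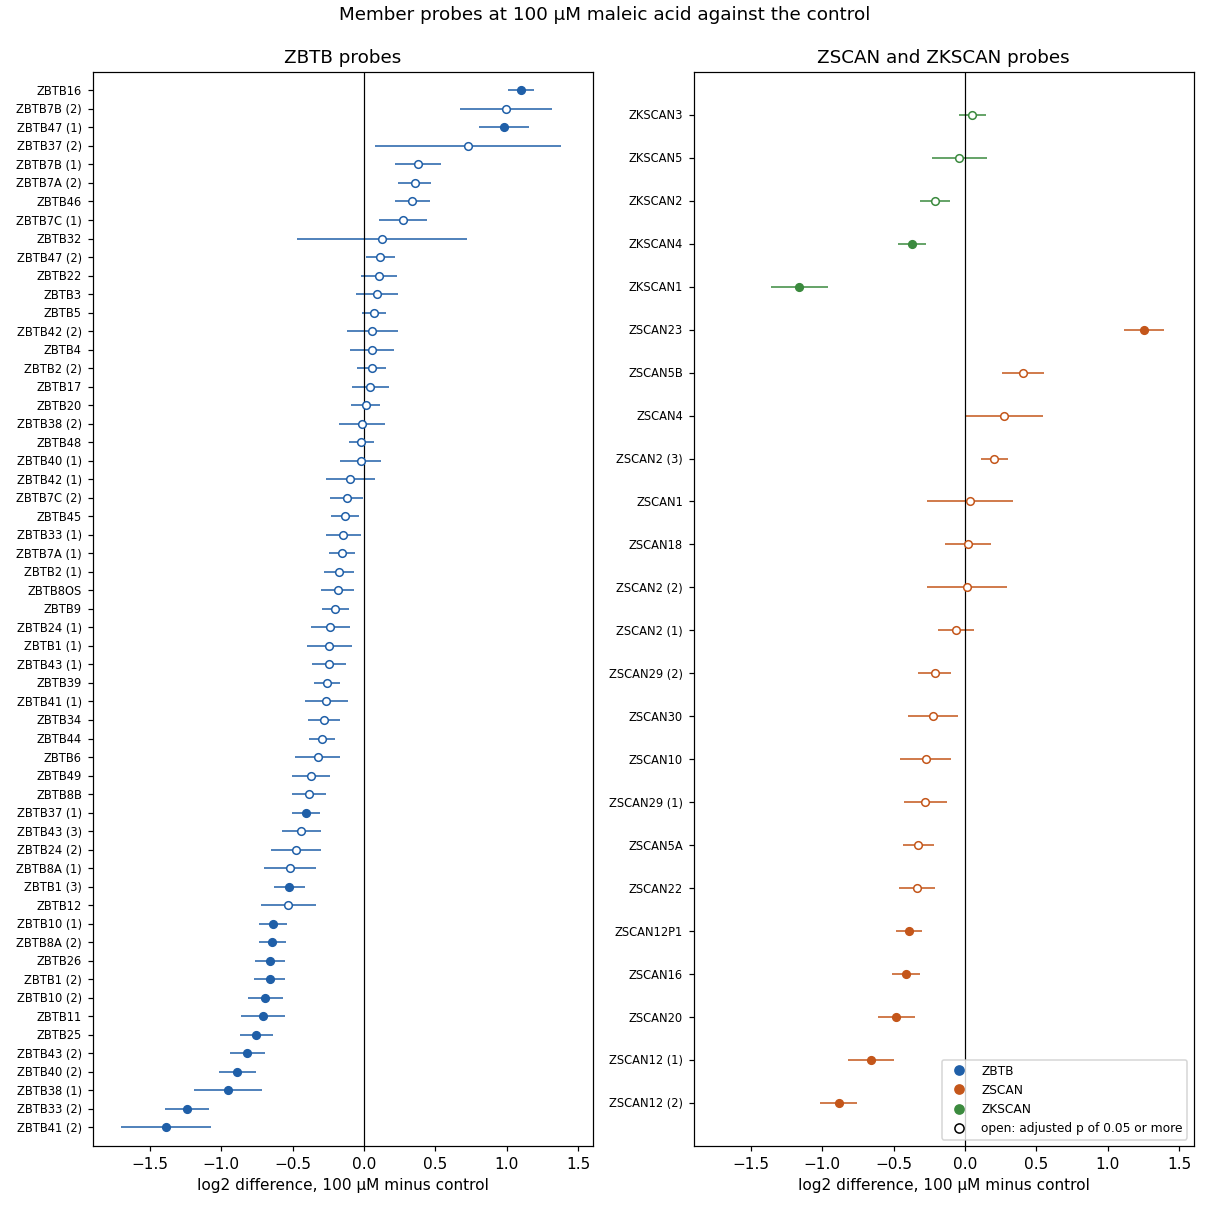
Log2 difference between 100 µM and the control (x axis) for each of the 81 member probes, ZBTB on the left and ZSCAN with ZKSCAN on the right. Bars are standard errors of the fit and filled points passed the test, and the filled points are 21 on the lower side and 3 on the higher side. Numbers in brackets rank the probes of a gene by brightness in the control.

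The subfamilies were compared at each dose. At 100 µM, ZBTB had 2 probes higher and 14 lower of 57 and a median log2 difference of −0.20, ZSCAN had 1 higher and 5 lower of 19 and a median of −0.22, and ZKSCAN had 0 higher and 2 lower of 5 and a median of −0.21. Of all probes, 8.94% were called higher and 10.4% lower at this dose, with a median of −0.03. In genes, 12 of 39 ZBTB, 4 of 15 ZSCAN and 2 of 5 ZKSCAN had at least 1 lower probe. This measure grows with the number of probes per gene, which differed between the subfamilies, and its share over all genes was not computed. At 10 µM the medians were −0.15 for ZBTB, −0.11 for ZSCAN and 0.02 for ZKSCAN, and at 50 µM −0.11, −0.05 and 0.01 in the same order. The median of all probes was −0.03 at 10 µM and −0.02 at 50 µM. With median scaling and relative to all probes, ZKSCAN turned to −0.22 at 10 µM and −0.27 at 50 µM and ZSCAN turned to 0.02 at 10 µM, while at 100 µM the medians were −0.34 for ZBTB, −0.28 for ZSCAN and −0.52 for ZKSCAN, where they had been −0.17, −0.19 and −0.18 with quantile normalization. Without the first array at 100 µM, ZKSCAN stood at −0.10 and ZSCAN at −0.23. No order of the subfamilies is read at any dose. The subfamilies were described by counts and medians, and the difference between them was not tested.

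**Figure D2:**
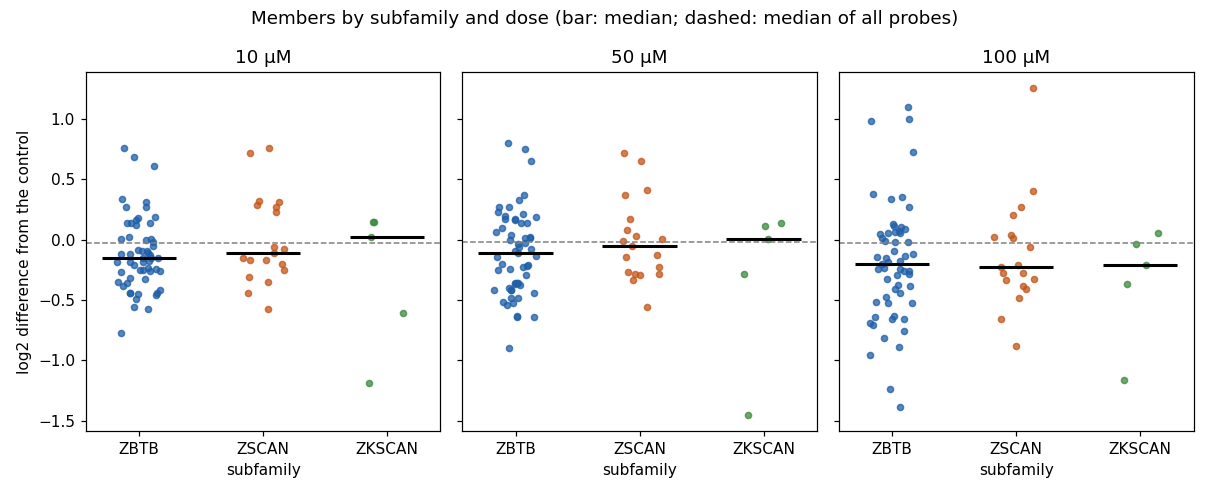
Log2 difference from the control (y axis) of every member probe by subfamily at 10, 50 and 100 µM. Bars are medians and the dashed line is the median of all probes. At 100 µM the 3 medians lie between −0.22 and −0.20, below the line at −0.03.

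Few members passed at the lower doses. At 10 µM, ZBTB16 and ZSCAN23 were higher and ZKSCAN1 and ZKSCAN4 were lower, where 1.72% of all probes were called higher and 1.57% lower. At 50 µM, 1 member was higher (ZBTB16) and 1 lower (ZKSCAN1), where 1.13% of all probes were called higher and 1.17% lower. Each of these calls was lost when either control array was left out. Scaling moved the balance, since median scaling gave 5 higher and 11 lower members at 10 µM, where 10.4% and 7.84% of all probes were called, and 4 higher and 22 lower at 50 µM, where 16% and 12.6% were. The means of all 4 doses descended at every step for 17 members and ascended for 4, where 9.27% and 9% of all probes did so. Tested as a slope over the rank of dose on the 4 averaged samples, 0 members passed in limma (lowest adjusted p = 0.197), with 4 upward and 15 downward at an unadjusted p under 0.05, where 9.55% of all probes were upward and 7.82% downward. For the 21 lower probes the median step was −0.26 between the control and 10 µM, −0.09 between 10 and 50 µM and −0.33 between 50 and 100 µM, the last being enlarged by choosing probes that were low at 100 µM. Over all 81 members the median steps were −0.15, −0.01 and −0.09 in the same order.

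ZSCAN23, a SCAN zinc finger gene, had the highest difference of the members at 100 µM. Its log2 intensities were 7.84 and 8.07 in the control, 8.75 and 8.68 at 10 µM, 8.69 and 8.52 at 50 µM, and 9.35 and 9.06 at 100 µM. All 6 treated arrays lay above both control arrays. The difference at 100 µM was 1.25 ± 0.14 (SE of the fit, n = 2 arrays per dose, adjusted p = 0.0046), a 2.38-fold increase. It was 0.76 at 10 µM and 0.65 at 50 µM, and the value at 50 µM missed the threshold (adjusted p = 0.060).

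ZBTB16 encodes PLZF, a factor of blood and germ cell development that is fused to a retinoic acid receptor in some leukaemias. Its intensities were 6.99 and 6.96 in the control, 7.71 and 7.76 at 10 µM, 7.70 and 7.76 at 50 µM, and 8.08 on both arrays at 100 µM. The arrays of a dose were close, and ZBTB16 was called higher at all 3 doses. The difference was 0.75 at 10 µM, 0.75 at 50 µM and 1.10 ± 0.09 at 100 µM (2.14-fold, adjusted p = 0.0017).

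ZBTB47 had 2 probes that behaved differently. The brighter gave 11.99 and 12.26 in the control, 12.85 and 12.63 at 10 µM, 12.73 and 12.84 at 50 µM, and 13.32 and 12.90 at 100 µM, with means that ascended at every dose. Its difference at 100 µM was 0.98 ± 0.17 (1.97-fold, adjusted p = 0.015), while that of the dimmer probe was 0.11 ± 0.10 and did not pass. ZBTB7B encodes ThPOK, which directs T cells to the helper lineage, and its 2 probes differed by 0.38 and 1.00 at 100 µM without passing. The mean over its probes did pass when genes replaced probes (0.69 ± 0.15, adjusted p = 0.026).

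**Figure D3:**
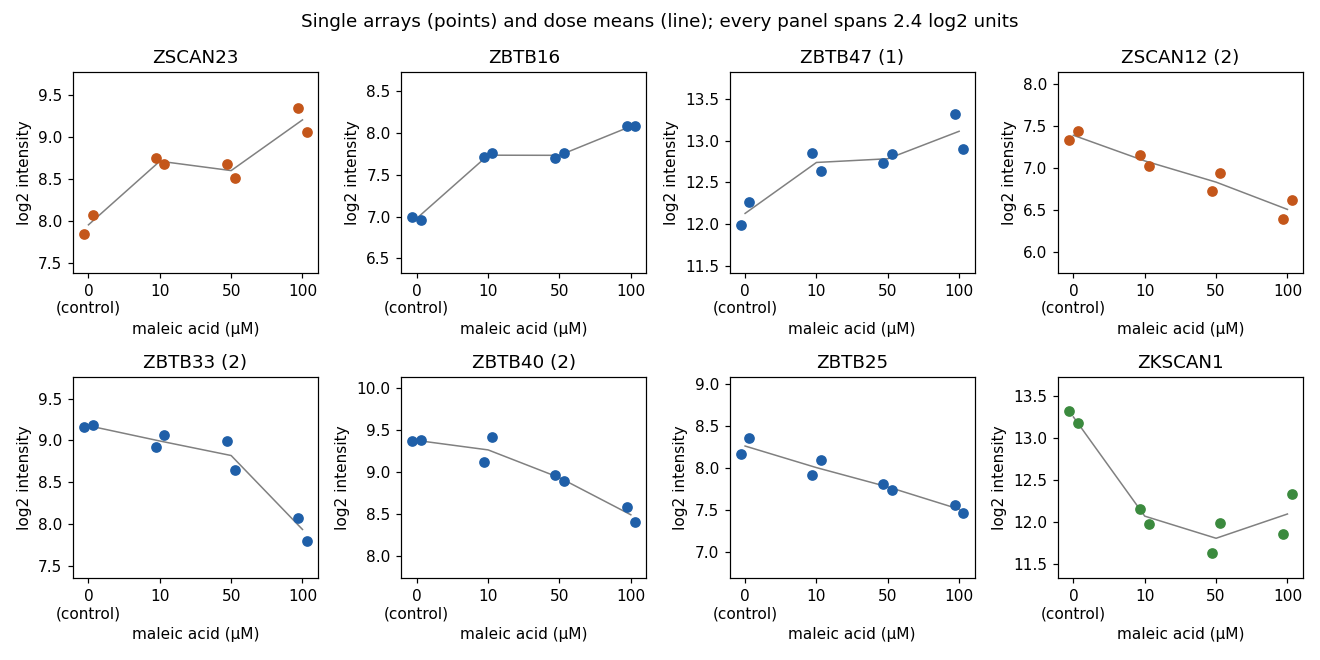
Log2 intensity (y axis) of 8 member probes on each array (points) at 0, 10, 50 and 100 µM (x axis, doses evenly spaced), with the mean of each dose joined by a line. ZSCAN23, ZBTB16 and ZBTB47 end above their control arrays, and the other 5 end below theirs. Where a gene has several probes, the one with the largest difference at 100 µM is drawn.

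ZKSCAN1, whose gene is also the source of a well-studied circular RNA, was the only member called lower at all 3 doses. Its intensities were 13.33 and 13.18 in the control, 12.16 and 11.98 at 10 µM, 11.63 and 11.98 at 50 µM, and 11.85 and 12.34 at 100 µM. The 6 treated arrays did not overlap the control arrays, and the lowest mean was at 50 µM. Differences were −1.18 at 10 µM, −1.45 at 50 µM and −1.16 ± 0.20 at 100 µM (adjusted p = 0.013). ZKSCAN4 and ZKSCAN3 are close relatives, of which ZKSCAN3 represses genes of autophagy. ZKSCAN4 gave 9.70 and 9.59 at 100 µM, against 10.03 and 9.99 in the control, a difference of −0.37 ± 0.10 (adjusted p = 0.040) that was kept under 4 of the 14 alternative settings and lost with cyclic loess (−0.34), with the replicate block and when any 1 array was left out. Its difference at 10 µM was −0.61 ± 0.10 (adjusted p = 0.031). ZKSCAN3 differed by 0.05 ± 0.10, ZKSCAN5 by −0.04 ± 0.20 and ZKSCAN2 by −0.21 ± 0.10 at 100 µM, and these 3 did not pass at any dose.

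Among binders of methylated CpG sites, 2 of 5 probes were lower at 100 µM. ZBTB33 encodes Kaiso, which binds methylated CpG pairs. Its dimmer probe gave 9.16 and 9.19 in the control, 8.92 and 9.07 at 10 µM, 8.99 and 8.65 at 50 µM, and 8.07 and 7.80 at 100 µM. Most of the fall lay between 50 and 100 µM, and the difference at 100 µM was −1.24 ± 0.15 (adjusted p = 0.0059). The brighter ZBTB33 probe gave 11.14 and 11.24 at 100 µM, against 11.38 and 11.29 in the control, a difference of −0.15 ± 0.12 that did not pass. ZBTB38 was also split, but there the brighter probe was the lower one. Its brighter probe gave 8.97 and 8.38 at 100 µM, against 9.81 and 9.43 in the control (−0.95 ± 0.24, adjusted p = 0.038), and its dimmer probe differed by −0.01 ± 0.16. ZBTB4 differed by 0.06 ± 0.16. Of 12 probes for other genes of DNA methylation, DNMT3B was higher by 0.43 and 1 DNMT3A probe was lower, by −0.92, both genes encoding de novo methyltransferases. Each call is 8.33% of these probes, near the 8.94% of all probes called higher and the 10.4% called lower.

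Of genes linked to telomeres, 3 of 6 probes were lower at 100 µM, where 10.4% of all probes and 25.9% of all members were. With so few probes, no trait of this group is read from the count. ZBTB10, which binds variant telomere repeats, was lower on both of its probes, at −0.69 ± 0.12 and −0.64 ± 0.10. The dimmer ZBTB10 probe gave 9.56 and 9.54 at 100 µM, against 10.09 and 10.38 in the control, and at 10 and 50 µM it differed by 0.00 and −0.03. ZBTB40 gave 8.58 and 8.40 on its dimmer probe at 100 µM, against 9.37 and 9.39 in the control (−0.89 ± 0.13, adjusted p = 0.0090). Its brighter probe differed by −0.02 ± 0.14. ZBTB48, the telomere binder TZAP, differed by −0.02 ± 0.09, and ZSCAN4, which in mouse embryonic stem cells acts in telomere lengthening, by 0.27 ± 0.27.

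Of 15 probes for regulators of neural and blood lineages, 1 was higher (ZBTB16) and 4 were lower at 100 µM. The lower share of 26.7% was near the 25.9% of all members, where 10.4% of all probes were lower. The higher share was 6.67%, where 8.94% of all probes were higher. ZBTB25 gave 8.17 and 8.36 in the control, 7.92 and 8.09 at 10 µM, 7.81 and 7.73 at 50 µM, and 7.56 and 7.46 at 100 µM, a steady descent that ended at −0.75 ± 0.12 (adjusted p = 0.010). ZBTB1, needed for lymphocyte development in mice and separated from ZBTB25 by 1 protein-coding gene, AKAP5, was lower on 2 of 3 probes (−0.66 and −0.52), the third standing at −0.24. ZBTB18, a repressor that acts in brain development and lay outside the name rule, had 1 probe lower (−0.59) and 1 at 0.31 that did not pass. ZBTB20, which patterns the hippocampus in mice, differed by 0.01, ZBTB46, a marker of dendritic cells, by 0.34, and ZBTB24, mutated in an immunodeficiency with DNA hypomethylation, by −0.23 and −0.48, with 0 of these probes called.

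Genes tied to growth and to the cell cycle inhibitor p21 (ZBTB7A, ZBTB2, ZBTB5 and the MYC partner ZBTB17) had 0 of 6 probes called at 100 µM, with differences between −0.18 and 0.35. Of all probes, 8.94% were called higher and 10.4% lower at that dose. The brighter ZBTB2 probe had its higher values at the middle doses, with 10.06 and 10.13 in the control, 10.35 and 10.51 at 10 µM, 10.52 and 10.41 at 50 µM, and 9.96 and 9.87 at 100 µM. At 10 and 50 µM both arrays lay above the control, and at 100 µM both lay below it, with 0 of the 3 differences past the threshold. The dimmer ZBTB2 probe did not share this course, with differences of −0.21 at 10 µM, −0.004 at 50 µM and 0.05 at 100 µM. Of 3 ZSCAN2 probes, the middle one in brightness rose at the middle doses, with means of 11.08 in the control, 11.80 at 10 µM, 11.80 at 50 µM and 11.09 at 100 µM. The brightest went the other way, at −0.20, −0.27 and −0.06 at 10, 50 and 100 µM. The dimmest stood at 0.31, 0.17 and 0.21, and no ZSCAN2 probe was called. Genes of pluripotency and the early embryo (ZSCAN10, ZSCAN4 and ZSCAN5B) had 0 of 3 probes called, and ZSCAN10 fell under a normalized intensity of 50 on some arrays.

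The other lower members have roles that are less well described. ZSCAN12 was lower on both probes, at −0.89 ± 0.13 and −0.66 ± 0.16, and the call was kept under 11 of 14 alternative settings for the dimmer probe and 5 of 14 for the brighter. Its dimmer probe gave 7.34 and 7.45 in the control, 7.15 and 7.02 at 10 µM, 6.73 and 6.94 at 50 µM, and 6.40 and 6.62 at 100 µM, each dose lying below the one before. ZBTB43 was lower on 1 of 3 probes (−0.82 ± 0.12), ZBTB8A on 1 of 2 (−0.64 ± 0.10), and ZBTB11 (−0.71) and ZBTB26 (−0.66) on their single probes. Smaller falls were those of ZSCAN16 (−0.41) and the pseudogene ZSCAN12P1 (−0.39), whose calls were kept under 5 and 7 of 14 settings and lost with the replicate block and without either control array. ZSCAN20 at −0.48 and the brighter ZBTB37 probe at −0.41 were called lower, but stood at 0.11 and 0.16 with median scaling. The dimmer ZBTB41 probe gave 5.01 and 4.84 at 100 µM, against 6.23 and 6.39 in the control. Both arrays at 100 µM were under a normalized intensity of 50, the level taken here as dim, so this probe was at least 1.59-fold lower, and the fitted −1.39 ± 0.32 (adjusted p = 0.028) is no measured size.

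Probes of 1 gene were compared with each other. Of 19 member genes with several probes, 11 had a probe called at 100 µM, and every probe was called in 2 of them, ZBTB10 and ZSCAN12. The first count grows with the number of probes per gene. Its share over all genes with several probes was not computed, so it is not read as a result about the members. Of single probes on the whole array, 8.94% were called higher and 10.4% lower. Being called or not is no measure of disagreement, since the ZBTB8A probes stood at −0.64 and −0.52 with 1 called. For some genes the probes parted within each array. For ZBTB33 the brighter probe exceeded the dimmer by 3.07 and 3.44 log2 units at 100 µM, against 2.22 and 2.10 in the control, and for ZBTB40 by 2.59 and 2.87, against 1.98 and 1.75 in the control. For ZBTB38 the gap narrowed to 1.37 and 1.16 at 100 µM, against 2.38 and 2.03 in the control. No member gene had probes called in opposite directions. The log2 ratio of the brighter over the dimmer ZBTB37 probe changed by −1.13, but the dimmer probe's arrays at 50 µM were 2.22 log2 units apart and its difference did not pass. When the mean over each gene's probes was tested, 17 of 59 genes were lower and 4 higher at 100 µM, where 11.8% and 8.34% of all genes were called.

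**Figure D4:**
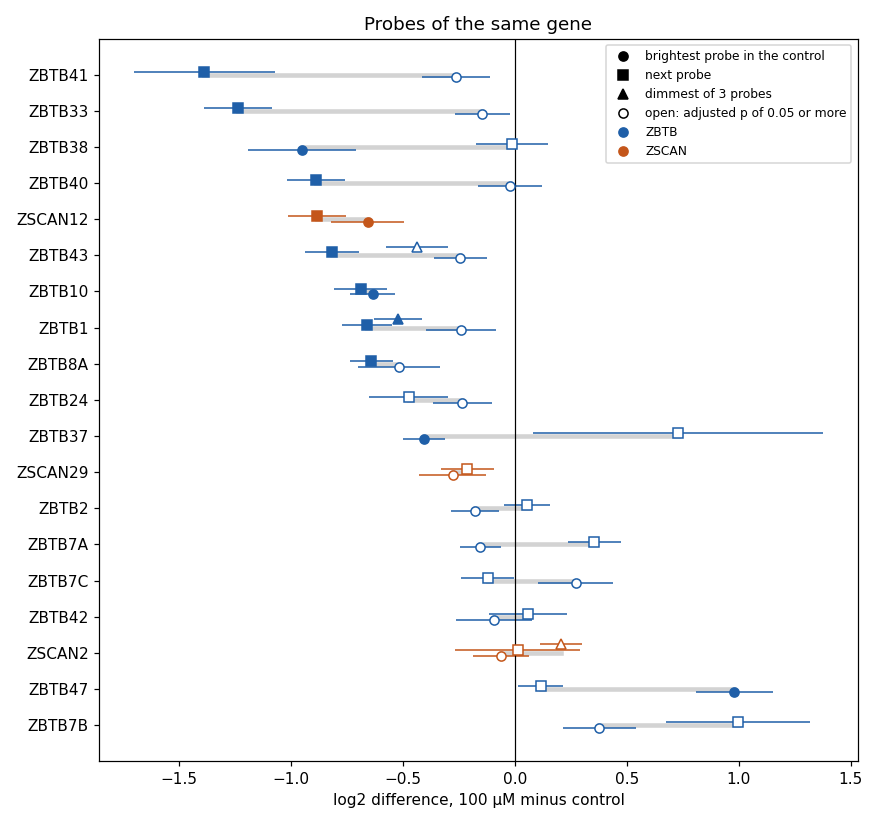
Log2 difference between 100 µM and the control (x axis) for each probe of the 19 member genes with several probes. Bars are standard errors of the fit, filled points passed the test, and grey lines join the probes of a gene. ZBTB10 and ZSCAN12 have every probe filled, whereas ZBTB33, ZBTB38 and ZBTB40 have 1 filled probe far from the open one.

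Members were measured with brighter signals than most probes, with a median of 9.69 log2 in the control against 8.75 over all probes. When all probes were split into 5 equal bins by brightness in the control, 8 of 26 members in the middle bin were lower at 100 µM, against 20.8% of all probes of that bin. In the bin above it the count was 7 of 28, against 10.7%, and in the brightest bin 2 of 9, against 4.91%. In the bin below the middle it was 4 of 14, against 13.3%, and in the dimmest bin 0 of 4, against 2.49%. Differences over 2-fold at 100 µM were seen for 2 members on the higher side (ZSCAN23 and ZBTB16) and 3 on the lower side (ZBTB33, ZKSCAN1 and the dim ZBTB41 probe), where 2.88% and 1.05% of all probes exceeded that size. Both arrays at 100 µM lay below both control arrays for 44 members (54.3%), where 33.9% of all probes did, and above them for 15, where 28.4% did.

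Related genes that the name rule did not take in were set beside the members. Of 13 probes for other BTB zinc finger genes, BCL6B was higher on 1 probe (0.73) and the tumour suppressor HIC1 lower on 1 probe (−0.73). Each is 7.69% of the list, where 8.94% of all probes were called higher and 10.4% lower. Of 32 probes for other SCAN genes, 2 were higher (ZNF500 at 0.73 and ZNF483 at 0.56) and 8 lower (25%), a share near that of the members. The imprinted gene PEG3 was lower on both of its probes, at −1.11 and −0.38, and ZNF396 was lower by −0.89. For the 18 probes under older names, 3 were lower (16.7%, where 10.4% of all probes were) and 0 higher. ZSCAN31 at −0.74 and ZKSCAN8 at −0.64 were among the lower ones. Among the partners of these proteins, 22 probes for corepressors and CUL3, 3 were lower and 0 higher. The lower share was 13.6%, near the 10.4% of all probes. The lower ones were the NCOR complex subunit TBL1XR1 (−0.50), the deacetylase HDAC2 (−0.46) and CUL3 (−0.42).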

How the data were processed

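Gene expression was measured on 8 single-dye arrays, 2 technical arrays of 1 RNA sample for each of 4 doses. The authors scanned the slides, read spots with GenePix, processed them in Rosetta Resolver, removed flagged spots and describe scaling to a median. What they deposited is linear intensity, and the array medians still differed. The background subtraction is not described in the labels or methods. Values under 1 were set to 1, log2 of the deposited intensity was taken and arrays were quantile normalized with limma 3.58.1 (R 4.3.3). Python 3.11.15 and matplotlib 3.10.9 made the tables and plots.

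Each dose was compared with the control in 1 limma fit over all 8 arrays, two-sided, with Benjamini-Hochberg adjustment over 31741 probes and a threshold of 0.05. The number of arrays limits the precision. Deviations of same-numbered arrays were weakly correlated across doses (between −0.08 and 0.11), so the main fit did not pair them. Probes were named from the platform annotation, where 6081 probes had no symbol and 1002 had several. The normalized intensity of 50 taken as dim was chosen with the values known. RefSeq windows (GRCh38.p14) were matched by symbol for 50 of 59 genes.

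The members, gene lists and tests were chosen with earlier results of these data known. Named genes were the called members with the largest differences at each dose (up to 10 a direction), the role groups, genes whose probes differ, and up to 4 of each other list. Probes of ZSCAN2 and others beyond these were named after their values were seen. Alternatives were cyclic loess, median scaling, no scaling, dim probes left out, a floor of 32, a replicate block, each array left out and, added after the data were seen, genes in place of probes and the members without ZBTB8OS and ZSCAN12P1.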

Additional observations from a re-analysis of the deposited data

How the results depend on the processing

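The counts of members depended most on scaling and on the control arrays. With median scaling, 5 members were higher and 11 lower at 10 µM (10.4% and 7.84% of all probes), 4 higher and 22 lower at 50 µM (16% and 12.6%), and 6 higher and 30 lower at 100 µM (16.1% and 15.1%). With no scaling, where the median of all probes moved to −0.30 at 10 µM, 0.14 at 50 µM and −0.34 at 100 µM, 1 was higher and 42 lower at 10 µM, 0 lower at 50 µM and 48 lower at 100 µM. Of all probes, 3.1% were then higher and 36.1% lower at 10 µM, 0.0315% lower at 50 µM and 35.8% lower at 100 µM. Cyclic loess gave 2 higher and 3 lower at 50 µM (2.94% and 2.54% of all probes). Leaving out dim probes (4.35% and 4.79%) and a floor of 32 (3.64% and 4.05%) each gave 2 higher and 8 lower there. With the replicate block, 1 was higher and 0 lower at 10 µM (0.977% and 0.293% of all probes), 0 and 0 at 50 µM (0.236% and 0.0473%), and 4 higher and 15 lower at 100 µM (7.28% and 7.51%). Whether arrays of the same number shared a slide or run across doses is not stated.

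Relative to all probes, the subfamily medians with median scaling and with no scaling were, for ZBTB, −0.27 under both at 10 µM, −0.25 under both at 50 µM and −0.34 under both at 100 µM. For ZSCAN they were 0.016 at 10 µM and −0.28 at 100 µM, and for ZKSCAN −0.22 at 10 µM, −0.27 at 50 µM and −0.52 at 100 µM. Apart from the floor, these settings differ only by a shift of each whole array in log2, so their match relative to all probes was fixed in advance. ZSCAN20 and the brighter ZBTB37 probe changed sign at 100 µM with median scaling, to 0.11 and 0.16. The cause was not tested.

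With each array left out in turn, the higher count ranged between 0 and 2 at 10 µM, 0 and 2 at 50 µM, and 2 and 4 at 100 µM, and the lower count between 0 and 3, 0 and 2, and 2 and 18. A dose left with 1 array was assumed to vary like the others. The medians relative to all probes ranged, for ZBTB, from −0.16 to −0.066 at 10 µM, from −0.14 to −0.07 at 50 µM and from −0.20 to −0.16 at 100 µM. For ZSCAN they ranged from −0.12 to −0.05, from −0.10 to −0.029 and from −0.23 to −0.18, and for ZKSCAN from −0.16 to 0.12, from −0.18 to 0.10 and from −0.26 to −0.10. The calls of ZBTB16, ZBTB33 and ZSCAN23 at 100 µM were kept under all 14 alternatives chosen at the outset. Genes in place of probes, and the members without ZBTB8OS and ZSCAN12P1 (20 lower and 3 higher at 100 µM), moved no count by over 1.5 times.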
